A study of Arabidopsis thaliana with 28 samples.

Results

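A set of 138 probe sets was lower in warm Arabidopsis seedlings overexpressing CBF1, CBF2 or CBF3 and was also lower in wild-type seedlings given cold. The members were chosen from measured values. Each had a group mean at least 0.7 log2 units below warm wild type in all 3 overexpressors, and a mean at least 1 log2 unit below it in cold wild type. A probe set is the group of array spots that measures one transcript or a few alike. The rule took probe sets with no gene symbol, that is without a single annotated gene or with an AT locus identifier alone, and with a log2 value above 4 in at least 4 samples. It was met by 138 of 22746 non-control probe sets, of which 14623 passed the filter on low values and 13504 of those had no gene symbol. All 138 members passed this filter by construction, and 1 further probe set had the 4 differences but failed it.

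Of the members, 44 carried an AT locus identifier, 88 had no gene listed in the platform table used here and 6 listed several genes. Members without a single locus are called by their probe set identifier, and no function is given for them. A further 9 probe sets with the same 4 differences carried a gene symbol and were left out by the rule. They were STR18, cwINV6, MSRB9, ALN, EXPA8, scpl31, CML30, TBL45 and JAL22.

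The series measured transcripts on an Affymetrix array in aerial parts of Arabidopsis thaliana of the accession Ws-2, in 28 samples. The warm transgenic groups overexpressed CBF1 (CBF1OX), CBF2 (CBF2OX) or CBF3 (CBF3OX). Plants overexpressing CBF2Δc, a truncated CBF2, are called CBF2DN as in the sample labels and were given cold or kept warm. Wild-type (WT) plants were likewise given cold or kept warm, and each of the 7 groups had 4 samples. All plants grew on agar for 11 d at 22 °C under constant light near 100 µmol per square metre and second. Cold lasted 24 h at 4 °C under about 35 µmol per square metre and second, so that temperature, light and age cannot be told apart. There were 2 transgenic lines per construct and 2 samples per line. CBF1OX had lines G5 and G39, CBF2OX had E2 and E24, CBF3OX had A28 and A30, and CBF2DN had DN89 and DN96. The first line of each pair gave replicates 1 and 2. The labels do not name the promoter that drives the transgenes. Nothing in them says that samples of a line came from separate plantings, so p-values measure only the spread between these samples. In such bulk tissue, fewer cells of a type and less RNA per cell cannot be told apart.

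The CBF proteins belong to the AP2/ERF family of transcription factors and are induced soon after plants enter the cold. They bind the CRT/DRE element in promoters and raise cold-regulated genes such as COR15A, whose product protects chloroplast membranes during freezing. Plants that overexpress them are known to be freezing tolerant and to grow slowly, and many transcripts fall as well as rise in them. The transcripts described here belong to that lowered side.

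RCA, the Rubisco activase of green tissue, had group means of 13.1 to 13.7 log2 units in all 7 groups. PYK10, a beta-glucosidase best known from roots, was present as well, at 10.8 to 11.8 log2 units. Array medians lay between 4.98 and 5.08 log2 units. A list of 9 classical CBF targets had 4 tested genes, COR15A, COR15B, COR47 and LTI30. All 4 were called higher in cold than in warm CBF2DN plants (9.06% of all tested probe sets were), with a median difference of 5.83 log2 units.

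In warm wild type the members spanned low to very high levels, with group means of 4.07 to 11.96 log2 units and a median of 7.37. In cold wild type the same members ran from 2.41 to 9.94 log2 units with a median of 5.26, and 31 of them had a mean under 4. The differences that chose them are a description, and nothing is read from tests of them. Relative to warm wild type, the median member differed by -1.09 in CBF1OX, -1.17 in CBF2OX and -1.35 in CBF3OX on the log2 scale, and by -1.85 in cold wild type. The furthest member stood at -2.34 in CBF1OX, -3.32 in CBF2OX, -3.36 in CBF3OX and -8.15 in cold wild type. All of these comparisons share the 4 warm wild-type arrays.

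A probe set was called when its Benjamini-Hochberg adjusted p from limma was under 0.05 and its change at least 2-fold. By this measure 53 members were called lower in CBF1OX (0.732% of all tested probe sets were), 58 in CBF2OX (0.786%), 109 in CBF3OX (1.66%) and 133 in cold wild type (9.67%). These counts follow from the rule and nothing is read from them. The cold difference of wild type was further from 0 than the mean of the overexpressors in 114 members and nearer in 24. CBF3OX had the lowest mean of the 3 overexpressors in 98 members, and CBF1OX the highest in 72. Between any 2 of these 3 groups 0 members were called (limma, 0.0205% to 0.0342% of all tested probe sets in either direction). The CBF1OX and CBF2OX means each join 2 lines that differed, as given below, so no order of the constructs is read from these counts. Nearest inside the overexpressor threshold stood the unnamed 265444_s_at at -0.705 for its highest overexpressor, followed by AT3G53250 and AT3G13000, both at -0.71. Nearest outside was the unnamed 262456_at at -0.69. For cold, 254764_at lay on the threshold and 262427_s_at just outside at -0.98.

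**Figure D1:**
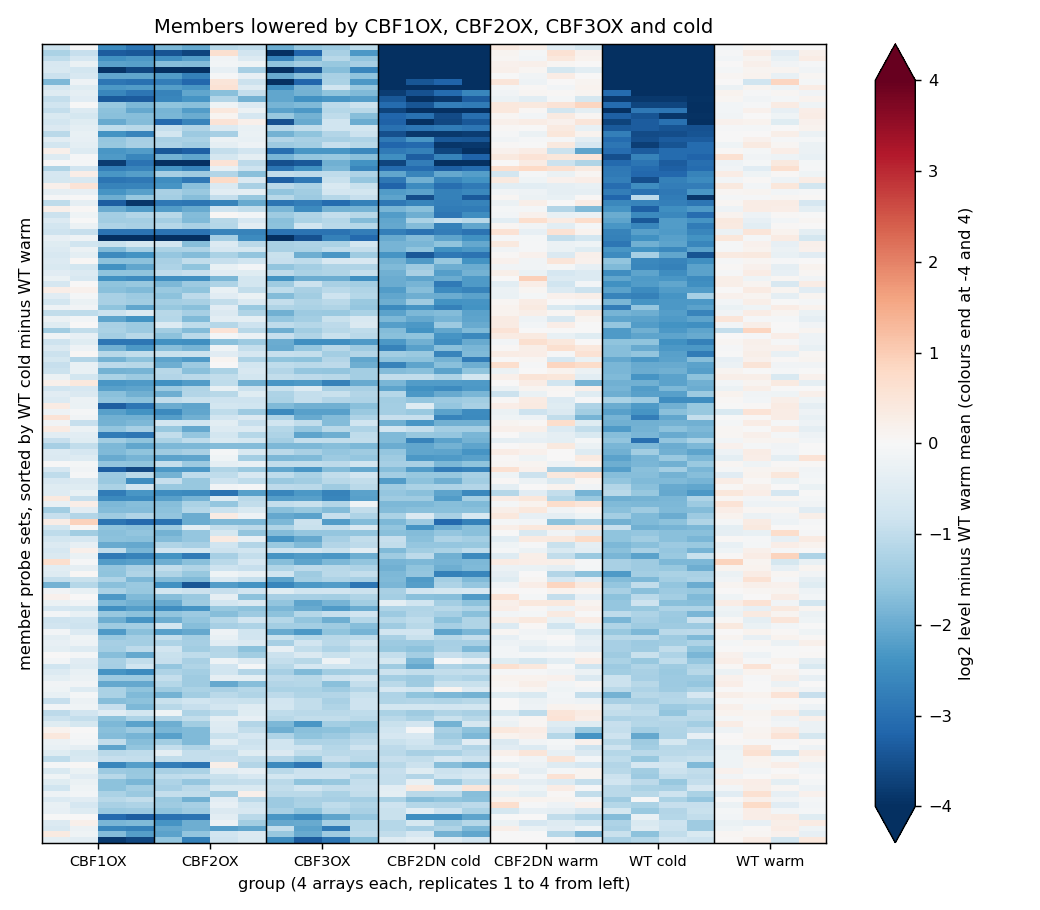
Each row is one of the 138 members, sorted by the cold difference of wild type, and each column is one array; colour is the log2 level minus the warm wild-type mean, with colours ending at -4 and 4. Arrays of cold CBF2DN plants are blue like those of cold wild type, arrays of warm CBF2DN plants are near white, and the first 2 CBF1OX arrays (line G5) are paler than the last 2 (line G39).

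The levels in CBF2DN plants were not used to choose the members, apart from the filter on low values. The members fell in the cold in these plants too. Relative to warm CBF2DN plants, 108 of 138 members were called lower in cold CBF2DN plants and 0 higher, against 8.99% of all tested probe sets called lower (limma, adjusted p over 14623 probe sets). The median member differed by -1.60 log2 units, with a range of -7.89 to -0.04, while the median of all tested probe sets was -0.04. All 138 differences were below 0. In 115 members every cold sample was lower than every warm sample, which held for 23.5% of all tested probe sets.

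Most probe sets lowered by cold in wild type behaved in this way. Of the 1283 other tested probe sets at least 1 log2 unit lower in cold wild type, 72.4% were called lower in cold CBF2DN plants, so a high count is no property of the members alone. Their median was -1.28 in CBF2DN plants and -1.37 in wild type.

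Across the 138 members, the CBF2DN and wild-type cold differences had a Pearson correlation of 0.945. This is a description across probe sets, which are not independent replicates, and the 2 differences share no arrays. The median ratio of the CBF2DN to the wild-type difference was 0.899. At least 4-fold lower in the cold were 53 members in CBF2DN plants and 56 in wild type. The wild-type differences helped to choose the members and the CBF2DN ones did not, so the ratio leans below 1.

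**Figure D2:**
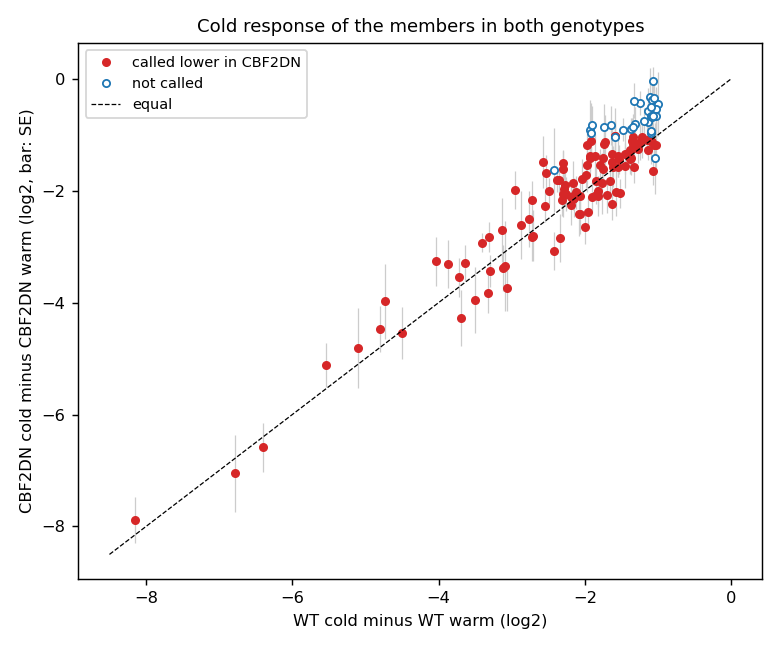
Each point is a member, with its log2 difference between cold and warm CBF2DN plants (vertical, bar: SE of the limma fit) against that between cold and warm wild type (horizontal); filled points are the 108 members called lower in CBF2DN plants. Points follow the dashed line of equality down to 260221_at at -7.89 and -8.15, and the open points lie near the top right.

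Genes linked to sugar supply, dormancy and auxin were called lower in cold CBF2DN plants in 3 of 3 cases, with a median of -2.61 log2 units. For comparison, 78.3% of all 138 members and 8.99% of all tested probe sets were called lower. The class counts here and below are a description, since the classes were formed after the members were known. AT3G15450 belongs to a family of aluminium-induced proteins and is known as SEN5, a transcript that rises in senescence and darkness and falls with sugar. It had 6.96, 7.89, 7.22 and 7.42 log2 units in cold CBF2DN plants, against 10.20, 9.66, 9.99 and 10.09 in warm CBF2DN plants. The groups did not overlap, and the difference was -2.61 ± 0.61 (SE, limma adjusted p = 0.000818). In cold wild type it had 7.08, 6.29, 7.12 and 7.29 log2 units, against 9.71, 9.86, 9.60 and 10.10 in warm wild type.

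AT1G56220, of the dormancy/auxin associated family, averaged 7.39 ± 0.08 in cold CBF2DN plants and 10.32 ± 0.28 in warm CBF2DN plants (SD, n = 4 each; limma adjusted p = 3.82e-13). AT3G53250, a SAUR-like auxin-responsive gene, fell by 1.12 ± 0.23 log2 units (SE, limma adjusted p = 0.000211). All 4 cold samples lay below the detection level of 4, and measured from that level the fall was at least 0.98. Its call was lost with line DN96 alone, at -0.72, and without warm CBF2DN replicate 2, at -0.94. A list of 12 sugar-repressed and dark-induced genes had 3 tested genes, AT3G15450 among them, and all 3 were called lower in cold CBF2DN plants with a median of -3.29. The other two, neither of them members, were AT4G27450 at -5.11 and AKINBETA1, a subunit of the SnRK1 energy-sensing kinase, at -3.29. The median over all tested probe sets was -0.04. AT3G15450 was chosen by its fall in cold wild type, and the list was written with earlier results of these data known. Nothing is therefore read from the count of 3 beside that median.

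Transporters and membrane proteins were called lower in cold CBF2DN plants in 5 of 5 cases. AT5G14120, a transporter of the major facilitator superfamily, had 6.87, 7.04, 6.47 and 7.02 log2 units in cold CBF2DN plants, against 10.11, 9.92, 10.41 and 10.13 in warm CBF2DN plants. It fell by 3.29 ± 0.33 (SE, limma adjusted p = 5.15e-09). Cold wild type had 6.76, 6.59, 6.14 and 6.09, against 9.91, 10.06, 9.86 and 10.33 in warm wild type, so that neither genotype's groups overlapped. AT2G16660, of the same superfamily, differed by -1.57 ± 0.36, and AT3G45710, a member of the nitrate and peptide transporter family, by -1.58 ± 0.29 (SE). The call of AT2G16660 was lost with line DN89 alone, at -1.27, and that of AT3G45710 with line DN96 alone, at -0.90.

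The 4 hydrolases were all called lower. AT5G44020, of the acid phosphatase family, averaged 6.59 ± 0.43 in cold CBF2DN plants and 10.03 ± 0.45 in warm CBF2DN plants (SD, n = 4 each; limma adjusted p = 2.19e-10). The alpha/beta hydrolases AT2G03550, AT1G80280 and AT2G39400 differed by -1.72, -1.44 and -1.19 log2 units. Both cell wall genes were called as well. AT2G31110, a trichome birefringence-like protein of the kind that acetylates wall polysaccharides, differed by -1.82 ± 0.27 (SE). AT3G62110, a pectin lyase-like protein, differed by -1.03 ± 0.25 (SE), and 5 of the alternatives ended its call, with values of -0.995 to -0.635.

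Among the 4 defence-related members, 3 were called lower. AT3G16530, a legume-type lectin, had 5.70, 5.32, 6.29 and 5.96 log2 units in cold CBF2DN plants, against 7.38, 7.79, 8.37 and 7.92 in warm CBF2DN plants. The groups did not overlap, and it fell by 2.05 ± 0.26 (SE, limma adjusted p = 3.5e-07). It was lower still in CBF2OX, at 5.09, 4.09, 5.28 and 5.13, and in CBF3OX, at 4.92, 5.22, 5.28 and 4.63, than in cold wild type, at 5.99, 6.53, 5.95 and 5.55. Warm wild type had 7.63, 7.72, 7.69 and 7.05. No test is given for these groups, since the rule used them. AT2G42900, a basic secretory protein, differed by -1.43 ± 0.30 (SE) between cold and warm CBF2DN plants.

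AT1G14960, a major latex protein of the Bet v 1 family, had 4.79, 4.67, 3.99 and 3.64 log2 units in cold CBF2DN plants, against 5.89, 5.32, 5.56 and 4.74 in warm CBF2DN plants. Here the groups overlapped, and the change of -1.10 ± 0.44 (SE, limma adjusted p = 0.0371) lost its call under 8 alternatives, with values of -1.34 to -0.88. AT5G66590, a cysteine-rich secreted protein of the CAP family, was not called at -0.51 ± 0.27 (SE, limma adjusted p = 0.109).

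Receptor and signalling genes were called lower in 3 of 4 cases. AT5G59670, a leucine-rich repeat receptor kinase, had 4.48, 4.50, 4.62 and 4.48 log2 units in cold CBF2DN plants, against 5.98, 5.77, 5.50 and 5.92 in warm CBF2DN plants. It fell by 1.27 ± 0.29 (SE, limma adjusted p = 0.000622). Its neighbour in the genome, AT5G59680, encodes another such kinase and is also a member; the pair was the one case of members next to each other among protein-coding genes. AT5G59680 differed by -0.93 ± 0.15 (SE, limma adjusted p = 8.03e-06), short of 2-fold. Transcripts of such alike neighbours may share probes, which was not checked here. AT2G41090, a calmodulin-like calcium sensor, was among the highest members at 10.79 ± 0.30 log2 units in warm CBF2DN plants, and averaged 9.61 ± 0.29 in cold ones (SD, n = 4 each). Its call (limma adjusted p = 0.0182) was lost under 4 alternatives, at -1.22 to -1.04.

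Of 7 members in oxidation and specialised metabolism, 4 were called lower. AT3G29410, of the terpene synthase family, had 7.62, 7.11, 6.56 and 6.67 log2 units in cold CBF2DN plants, against 9.93, 9.50, 8.01 and 8.01 in warm CBF2DN plants. The groups did not overlap, although the first 2 warm samples, of line DN89, stood well above the other two. The difference was -1.87 ± 0.54 (SE, limma adjusted p = 0.00519), and line DN96 alone gave -1.40 and no call. AT3G46490, a 2-oxoglutarate-dependent oxygenase, differed by -2.08 ± 0.31, and AT1G55450, a methyltransferase, by -1.64 ± 0.26 (SE). AT3G46490 was below 4 in all 4 cold samples, and measured from 4 its fall was at least 0.91 log2 units, under 2-fold.

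AT1G31690, a copper amine oxidase, which oxidises polyamines, had 4.64, 4.50, 4.06 and 3.61 log2 units in cold CBF2DN plants, against 5.03, 5.71, 5.22 and 4.31 in warm CBF2DN plants. The groups overlapped, and the difference of -0.87 ± 0.42 was not called (SE, limma adjusted p = 0.0843). Without warm CBF2DN replicate 4 it was called, at -1.12. Cold wild type had 5.11, 4.65, 4.13 and 3.88 log2 units, against 6.62, 6.44, 5.50 and 6.15 in warm wild type. The warm CBF2DN samples overlapped with both and had a mean of 5.07 ± 0.58 (SD, n = 4). AT1G64590, a short-chain dehydrogenase, differed by -1.05 ± 0.53 between cold and warm CBF2DN plants and was not called (SE, limma adjusted p = 0.0989). AT3G56060, at -0.755, was short of 2-fold and was not called (limma adjusted p = 0.00797).

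A mixed class of nuclear, cytoskeletal and vacuolar genes was called lower in 3 of 5 cases. AT5G07580, an ethylene response factor, averaged 5.52 ± 0.45 in cold CBF2DN plants and 7.63 ± 0.16 in warm CBF2DN plants (SD, n = 4 each; limma adjusted p = 1.65e-08). AT5G40450, a protein of vacuole morphology, differed by -1.81 ± 0.24 (SE). AT2G35880 and AT3G12710 of this class differed by -0.86 and -0.67, short of 2-fold, and were not called (limma adjusted p = 0.00353 and 0.0441). The classes used above were written by hand for the 34 locus-named members with a known role, after the members were known.

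The remaining 10 locus-named members have no role given here, and 9 of them were called lower. AT3G15630 had 4.08, 3.01, 2.62 and 3.62 log2 units in cold CBF2DN plants, against 8.18, 7.83, 7.02 and 7.39 in warm CBF2DN plants. It fell by 4.27 ± 0.50 (SE, limma adjusted p = 7.74e-08), the largest fitted fall among the 44 locus-named members. In 3 of the 4 cold samples it was below 4, and with those set to 4 the fall was at least 3.58 log2 units. AT4G33666 averaged 7.11 ± 0.41 in cold CBF2DN plants and 10.49 ± 0.07 in warm CBF2DN plants (SD, n = 4 each). The member not called was AT1G30260, at -0.69 and short of 2-fold (limma adjusted p = 0.0137). Over all 44, 36 were called lower, and over the 94 members without a single locus, 72.

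The largest falls belonged to unnamed probe sets. 260221_at had 3.15, 3.28, 3.27 and 3.82 log2 units in cold CBF2DN plants, against 11.79, 11.61, 10.95 and 10.72 in warm CBF2DN plants, a difference of -7.89 ± 0.41 (SE, limma adjusted p = 8.3e-14). Cold wild type had 3.82, 3.27, 3.27 and 2.71, against 11.32, 11.51, 11.42 and 11.42 in warm wild type. A transcript near the top of the scale in warm plants thus lay below the detection level of 4 in cold plants of both genotypes. 248622_at showed the same shape, with 3.46, 3.46, 3.13 and 3.34 log2 units in cold CBF2DN plants, against 10.31, 10.13, 10.79 and 10.37 in warm CBF2DN plants. Values this low lie at the bottom of the scale, where the background step bounds how far a transcript can appear to fall. Measured from a level of 4, the fall was at least 7.27 log2 units for 260221_at and at least 6.40 for 248622_at. In the warm overexpressors 260221_at kept 8.50 to 11.36 log2 units.

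At the other end, 30 members were not called in cold CBF2DN plants, of which 27 had a change smaller than 2-fold and 11 an adjusted p under 0.05. 253372_at had 8.53, 9.36, 8.61 and 9.45 log2 units in cold CBF2DN plants, against 9.12, 8.79, 9.26 and 8.93 in warm CBF2DN plants. The groups overlapped throughout, with a difference of -0.04 ± 0.25 (SE, limma adjusted p = 0.917). Cold wild type had 7.88, 7.71, 7.67 and 8.31, against 8.84, 9.21, 9.04 and 8.77 in warm wild type. The difference between the 2 cold responses of 253372_at was 1.04 ± 0.35 (SE) and was not called (limma adjusted p = 0.337). The wild-type response helped to choose the members, so this difference leans above 0.

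**Figure D3:**
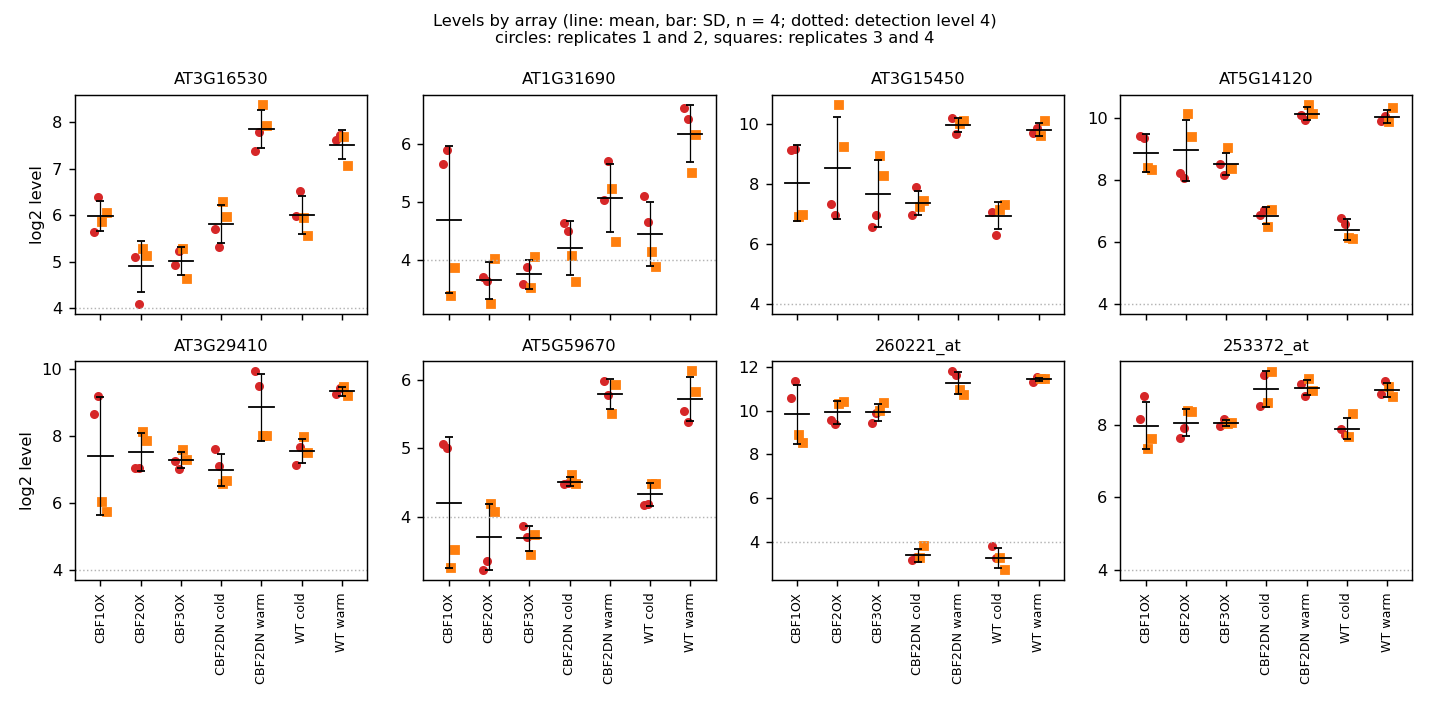
Log2 levels of 8 members in every array (circles: replicates 1 and 2; squares: replicates 3 and 4), with the group mean (line) and SD (bar, n = 4); the dotted line is the detection level of 4. 260221_at drops below 4 in both cold groups alone, AT3G16530 is lowest in CBF2OX and CBF3OX, and 253372_at stays at 8.53 to 9.45 in cold CBF2DN plants.

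In the warmth, the members stood near wild-type levels in CBF2DN plants. Of 138 members, 0 were called in warm CBF2DN plants against warm wild type (limma, 0.0205% of all tested probe sets in either direction). An unadjusted p under 0.05 was found for 2 members (6.05% of all). This fit holds line differences within CBF1OX and CBF2OX as spread, and these were wide in many members. The 2 members are therefore not read against the share of all probe sets. With only the compared groups fitted, 0 members were called as well. The median difference was -0.10 log2 units, with a range of -1.11 to 0.61, beside a median of 0.03 over all tested probe sets. Because high values in warm wild type helped to choose the members, these differences lean below 0. In 4 members every warm CBF2DN sample was lower than every warm wild-type sample (1.37% of all tested probe sets) and in 1 every sample was higher (3.41%).

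The 16 members at or below -0.5 were led by AT1G31690 at -1.11 ± 0.42, followed by 254820_s_at at -0.80 and 253957_at at -0.79. The highest were 263443_at at 0.61, 247266_at at 0.56 and 254931_at at 0.55. The median member differed from warm wild type by -0.01 in line DN89 and by -0.20 in line DN96. At or below -0.7 were 2 members in line DN89 and 22 in line DN96. All tested probe sets were not counted at this level, so whether 22 is unusual was not tested. Against warm wild type, 71 of 14623 probe sets were called with DN96 alone and 4 with DN89 alone, with 0 members in either case. Tested directly, 11 members were called higher in line DN89 than in line DN96 in the warmth (0.889% of all tested probe sets) and 1 lower (0.0274%). Each line had 2 samples, and calls were 3, 2 and 1 in all without warm CBF2DN replicate 1, 2 or 4.

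AT3G29410 showed this contrast by sample, at 9.93 and 9.50 log2 units in DN89 and 8.01 and 8.01 in DN96 (1.71 ± 0.23, SE; limma adjusted p = 0.000369). The widest was 253957_at at 1.91. AT5G44410, of the berberine bridge enzyme family, was the member lower in DN89, at -1.23 (limma adjusted p = 0.0359). In the cold, 7 members were called higher in line DN89 than in line DN96 and 0 lower (1.03% and 0.0615% of all tested probe sets), with 254820_s_at at 1.68 the widest. Leaving out any cold CBF2DN replicate gave 0 to 3 calls. PYK10 moved alongside in the warmth, at 12.31 in DN89 and 11.32 in DN96, and its part in the result was not tested.

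The median member differed by 0.10 log2 units between cold CBF2DN plants and cold wild type, with a range of -0.94 to 1.18, beside 0.04 over all tested probe sets. By line, the median was 0.185 in DN89 and 0.01 in DN96, beside 0.07 and 0.02 over all tested probe sets. At or below -0.7 were 0 members in DN89 and 9 in DN96, again without a count over all tested probe sets. These values lean above 0, since low values in cold wild type helped to choose the members. Called higher were 2 members and lower 0 (0.39% and 0.445% of all tested probe sets). In 11 members every cold CBF2DN sample was higher than every cold wild-type sample (5.87% of all tested probe sets).

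249774_at was one of the 2, with 5.02, 5.85, 6.15 and 5.98 log2 units in cold CBF2DN plants, against 4.99, 3.72, 4.86 and 4.73 in cold wild type (1.18 ± 0.32, SE; limma adjusted p = 0.0324). It still fell by 1.68 ± 0.32 between cold and warm CBF2DN plants. The other was 253372_at, described above, at 1.09 ± 0.25 (SE, limma adjusted p = 0.0102). Low values in cold wild type helped to choose the members. Both differences therefore lean above 0, and their p-values are given as a description. Calls were 0 where only the compared groups were fitted, with line as a random block, and without cold CBF2DN replicate 2 or 4, and 1 without cold wild-type replicate 2. Tested as a difference between the cold responses of CBF2DN plants and wild type, 0 members were called (limma, 0.0274% of all tested probe sets). An unadjusted p under 0.05 was found for 6 members (9.09% of all), and the median was 0.25, beside 0.02 over all tested probe sets. The wild-type cold response helped to choose the members, so this median leans above 0 and nothing is read from it. The same fit holds line differences within the overexpressors as spread, so the 6 are not read against the share of all probe sets.

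The lines of CBF1OX and those of CBF2OX differed in how far the members were lowered. The rule used the means of these arrays, though not the differences between lines. Members lowered on average over a construct separate its lines in 1 direction wherever 1 line was less affected. The counts of members below therefore describe the lines, and nothing about the members is read from them against the shares of all probe sets. The p-values of single members between these lines are likewise given as a description. In CBF1OX, 102 of 138 members were called higher in line G5 than in line G39 and 0 lower (3.39% and 2.48% of all tested probe sets). The median difference was 1.35 log2 units. In CBF2OX, 46 members were called lower in line E2 than in line E24 and 0 higher (1.34% and 0.957% of all tested probe sets), with a median of -0.83. Without CBF2OX replicate 2 or 3 the count was 28 or 25. In CBF3OX, 0 members were called between lines A28 and A30 (limma; 0.00684% of all tested probe sets), 23 had an unadjusted p under 0.05 (4.05% of all) and the median was -0.13. Without CBF3OX replicate 2 or 4, 2 members were called.

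Of the other 1283 probe sets lowered in cold wild type, 8.42% were called higher in G5 than in G39 and 5.14% lower in E2 than in E24. The members had been chosen as lowered in the overexpressors, and these others had not. Called in both comparisons were 37 members, which are 36.3% of the 102 and 80.4% of the 46. Over all 138 members, 33.3% were called lower in E2 and 73.9% higher in G5, so these shares are close to those of the members as a whole. The 2 comparisons share no arrays.

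The difference from warm wild type was given for each line as a description. Its median over the members was -0.42 in G5, -1.75 in G39, -1.56 in E2, -0.77 in E24, -1.42 in A28 and -1.26 in A30. In G39, E2, A28 and A30 nearly all members were at or below -0.7, at 137, 137, 136 and 134 of 138. E24 had 79 such members and G5 had 25. G5 was the highest of the 6 lines in 102 members, and G39 the lowest in 82.

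**Figure D4:**
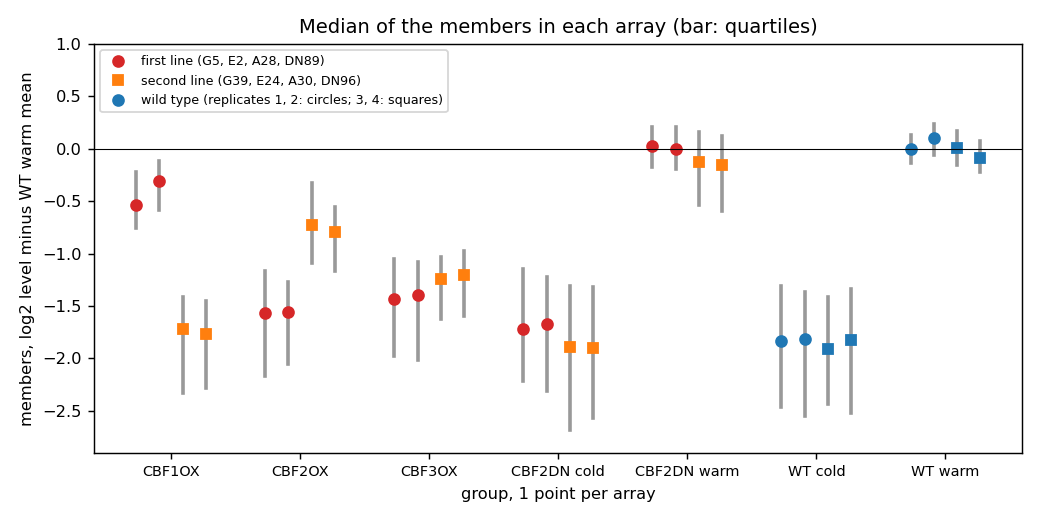
Median log2 level of the 138 members in each array minus the warm wild-type mean, with bars for the quartiles over members; circles are the first line of a construct and squares the second (for wild type, replicates 1 and 2 and replicates 3 and 4). The G5 arrays lie at -0.54 and -0.31 and the G39 arrays at -1.72 and -1.77, while the cold CBF2DN arrays lie at -1.90 to -1.67 and the warm ones at -0.16 to 0.02.

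AT3G29410, the terpene synthase, had 8.66 and 9.18 log2 units in G5, against 6.04 and 5.72 in G39 (3.04 ± 0.23, SE; limma adjusted p = 1.19e-08). Levels in E2 were 7.05 and 7.04, against 8.13 and 7.86 in E24, short of 2-fold. The sugar-related AT3G15450 had 9.12 and 9.17 in G5, against 6.91 and 6.97 in G39. In E2 it had 7.34 and 6.96, against 10.63 and 9.24 in E24, on either side of the warm wild-type values (-2.79 ± 0.37, SE; limma adjusted p = 9.66e-05). A28 had 6.55 and 6.97, against 8.93 and 8.27 in A30, which was not called (-1.84 ± 0.37, SE; limma adjusted p = 0.13).

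For 245736_at, the lower line of CBF1OX and that of CBF2OX lay below the detection level. It had 7.79 and 7.93 log2 units in line G5, against 3.66 and 3.75 in line G39 (4.16 ± 0.32, SE; limma adjusted p = 1.49e-08). Levels of 3.43 and 3.43 were measured in line E2, against 6.76 and 5.59 in line E24 (-2.75 ± 0.32, SE; limma adjusted p = 2.99e-05). In warm wild type it had 8.58, 8.03, 8.44 and 7.43, so that G5 was near wild type and G39 and E2 below detection. Measured from 4, the differences were at least 3.86 and 2.18 log2 units in size. Cold and warm CBF2DN plants differed by -1.63 ± 0.75 in this probe set without a call (SE, limma adjusted p = 0.0716), and the call was made where only the compared groups were fitted, or line was a block or a fixed effect.

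Within CBF1OX and within CBF2OX, 248622_at had the same order of lines as AT3G15450. It had 8.93 and 9.28 log2 units in G5, against 6.86 and 6.82 in G39, and 6.76 and 6.53 in E2, against 10.84 and 9.43 in E24. AT3G15630 and AT5G14120 were also lower in E2 than in E24, by -2.12 ± 0.47 and -1.61 ± 0.26 (SE; limma adjusted p = 0.00917 and 0.000833). The lectin AT3G16530 did not separate the lines, at 5.63 and 6.39 in G5, against 5.85 and 6.04 in G39 (0.07 ± 0.33, SE; limma adjusted p = 0.968).

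**Figure D5:**
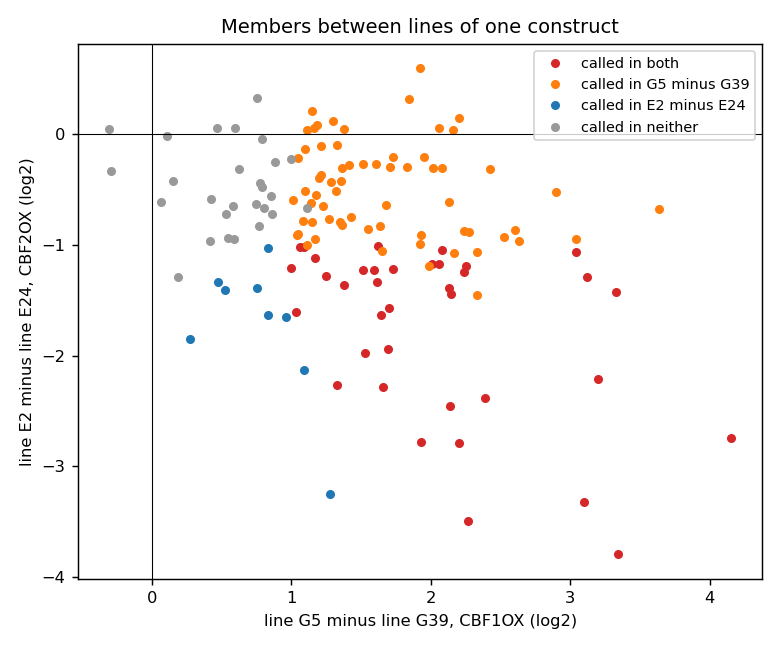
Each point is a member, with its log2 difference between lines G5 and G39 of CBF1OX (horizontal) and between lines E2 and E24 of CBF2OX (vertical). Members called in both comparisons (37, red) fill the lower right, and no member is called lower in G5 or higher in E2.

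The levels of 4 other transcripts in these lines are means of 2 samples and carry no test. The unnamed 254074_at, which was near the bottom of the scale in every group but CBF1OX, had 7.35 log2 units in G5 and 9.89 in G39. The unnamed 254075_at, high in CBF2OX and CBF2DN plants, had 11.93 in E2 and 11.68 in E24, with samples of 11.66 and 12.19 in E2 and of 11.51 and 11.85 in E24 that overlapped. COR15A had 12.23 in G5 and 12.92 in G39. PYK10 had 12.30 in G5 and 11.38 in G39. The part of each in the line differences was not tested.

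The members did not all follow one profile over the 28 arrays. The correlation of a member with the mean profile of the members, each centred on its own mean, ran from 0.549 to 0.978 with a median of 0.878, and 51 were above 0.9. These are descriptions over arrays that share groups. Of probe sets outside the members with an annotated name, TBL45, a trichome birefringence-like gene left out by its symbol, was the most alike at 0.973. It was followed by AT3G16370 at 0.942, AT3G10260 at 0.928, AT5G16650 at 0.926 and ATG8E, an autophagy gene, at 0.925.

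Few growth-related genes from 2 lists were tested, none of them a member, and nothing about growth is read from their counts. A list of 12 genes of auxin response and cell expansion had 3 tested genes. Of these, 2 were called lower in cold than in warm CBF2DN plants (8.99% of all tested probe sets were). They were the wall-loosening expansins EXPA4 at -2.26 and EXPA8 at -5.20 log2 units. EXPA8 has the 4 differences of the rule and was left out by its symbol alone. HAT2, an auxin-induced homeodomain gene, differed by -0.18 and was not called. A list of 19 gibberellin genes had 2 tested genes, the receptors GID1A and GID1B. Of these, 0 were called (limma), with differences of 0.02 and 0.49 log2 units and an adjusted p under 0.05 for GID1B alone.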

How the data were processed

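Affymetrix arrays of 28 samples were used. The authors deposited 1 log2 value per probe set and array. The submitters' processing notes name GCRMA and limma, without versions. GCRMA subtracts background by sequence, so dim values pile up near the bottom of the scale. Values spanned 2.16 to 14.53, from which the log base was taken. The number of arrays limits the precision.

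Groups and lines were taken from the labels. A limma 3.58.1 model (R 4.3.3, lmFit and eBayes) with 7 group means was fitted to the values as deposited of 14623 non-control probe sets with log2 above 4 in at least 4 samples; 64 control probe sets were left out. Line differences came from a second fit with a mean per line and treatment. Calls needed a Benjamini-Hochberg adjusted p under 0.05 over all tested probe sets and a 2-fold change. The group fit holds line differences as spread, which can widen the SE of members whose CBF1OX or CBF2OX lines differed. The procedure was tested on simulated data.

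The members, gene lists and classes were chosen with earlier results of these data known. Most members were named by a rule: the largest and smallest differences of each comparison, those nearest the thresholds, the highest of each class and those in the gene lists. AT3G46490 and AT5G44410 were named outside this rule, and not every member that it picked is described. Members printed by sample were taken from these. Replicate number was used as a block. Same-numbered cold and warm CBF2DN samples come from the same line per the labels, and their deviations had correlations of 0.152 to 0.282. For replicate 3 the best match was number 4, of the same line. Pairing by number was thus not told apart from sharing a line. Alternatives changed the filter, scaling, fold minimum, groups fitted, blocks, lines and single replicates. Gene names came from the platform table. Lists of circadian clock genes (1 tested, GI, 4.11 log2 units higher in cold than in warm CBF2DN plants) and markers were also read: FAMA of guard cells had group means of 4.74 to 5.69, the root genes EXPA7 and EXPA18 3.18 to 4.50, and no trichome, phloem or meristem marker was named on the array. Promoter and protein sequences were not used here.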

Additional observations from a re-analysis of the deposited data

Results flagged for a closer look

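Among 13 members printed by sample, 91 groups of 4 samples were searched for a sample far from the others, and chance gives about 1 in 20. Such samples were 3: AT3G16530 in CBF2OX, where the lowest sample had 4.09 log2 units, AT3G16530 in warm wild type, where the lowest had 7.05, and AT5G59670 in cold CBF2DN plants, where the highest had 4.62.

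Line differences within a construct, tested with limma at an adjusted p under 0.05 and 2-fold, were found for 16 values. Between G5 and G39 of CBF1OX they were 2.16 log2 units for AT1G31690, 2.20 for AT3G15450, 3.04 for AT3G29410, 1.03 for AT5G14120, 2.16 for AT1G14960, 1.64 for AT5G59670, 2.28 for 260221_at, 2.26 for 248622_at, 4.16 for 245736_at and 1.01 for 253372_at. Between E2 and E24 of CBF2OX they were -2.78 for AT3G15450, -2.12 for AT3G15630, -1.61 for AT5G14120, -3.49 for 248622_at and -2.74 for 245736_at. Between DN89 and DN96 of warm CBF2DN plants the value was 1.70 for AT3G29410. Each line had 2 samples. The G39 samples of AT1G31690, AT1G14960, AT5G59670 and 245736_at and the E2 samples of 245736_at lay below the detection level of 4. Measured from 4, these G5 and G39 values differed by at least 1.77, 2.02, 1.03 and 3.86 log2 units in that order, and the E2 and E24 values of 245736_at by at least 2.18. The rule that chose the members used the means of the overexpressor arrays, so the differences between overexpressor lines are given as a description.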

How the results depend on the processing

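Of 159 counts under an alternative, 131 stayed within 1.5 times the reported count. The 108 members called lower in cold against warm CBF2DN plants became 100 with line DN89 alone, 92 with DN96 alone, 119 with no fold minimum and 100 to 110 leaving out 1 replicate. With replicate number as a block the count was 107, and the block moved no other count by over 1.5 times. Same-numbered CBF2DN and wild-type samples had correlations of -0.231 to 0.015 in the cold and -0.146 to 0.284 in the warmth. A pairing of these samples was therefore not shown. The 2 members called between cold CBF2DN plants and cold wild type became 1 with no filter on low values, 1 with quantile normalization, 4 with no fold minimum, 0 with only the compared groups, 0 with line as a random block, 0 with DN89 alone, 4 with DN96 alone and 0 to 3 leaving out 1 replicate. Warm CBF2DN plants against warm wild type and the difference of cold responses stayed at 0 leaving out each replicate.

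Between lines, the 12 members for DN89 against DN96 in the warmth became 7 with no filter and 1 to 11 leaving out 1 replicate. The 7 in the cold became 1 with no filter, 3 with quantile normalization and 0 to 3 leaving out 1 replicate. Leaving out 1 replicate gave 84 to 97 for G5 against G39, 25 to 46 for E2 against E24 (28 without CBF2OX replicate 2, 25 without replicate 3) and 0 to 2 for A28 against A30; a line then has 1 sample, assumed to vary like the others. The 138 members became 247 with overexpressors at least 0.5 below wild type, 58 at 1, 36 with lines G5, E2 and A28 alone, 89 with G39, E24 and A30 alone, and 118 to 130 leaving out 1 replicate; the cause was not tested.

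Between cold and warm CBF2DN plants, 253957_at turned to 0.14 with DN96 alone, and 253372_at to 0.03 with arrays centred on their medians, 0.04 without warm replicate 3, 0.12 without cold replicate 1 and 0.09 without cold replicate 3. Without cold replicate 4 253372_at gave -0.19, the other end of its range. Of 1213 values of 58 named members, 1158 kept direction and call.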
